A study of Mus musculus with 2 samples.

Results

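The clustered histone genes are the 69 genes, of 55450 in the files, whose symbols start with Hist1h, Hist2h, Hist3h or Hist4, after symbols holding "-ps" were left out. GENCODE M21 annotates 67 of them as protein-coding and 2 of the H2A members, Hist1h2aj and Hist1h2al, as pseudogenes. By symbol they belong to the linker histone H1 (6 genes), which binds the DNA between nucleosomes, and the core histones H2A (20 genes), H2B (18 genes), H3 (12 genes) and H4 (13 genes), around which DNA is wrapped. In that annotation (GRCm38 build), 56 of them lie on chromosome 13, 10 on chromosome 3, 2 on chromosome 11 and 1 on chromosome 6. The study sorted CD11b high CD45 low cells from the brains of C57BL/6 mice at day 3 of repopulation, the refilling of the brain by microglia, and captured them with the 10x 3' v3 chemistry. One library came from mice labelled Hk2 fl/fl, which carry floxed alleles of Hk2 (hexokinase 2, a first enzyme of glycolysis) without a Cre driver. The other came from mice labelled Hk2 cKO, per the labels the cross Cx3cr1CreER::Hk2 fl/fl, in which tamoxifen activates Cre in cells that use the Cx3cr1 promoter, microglia and other myeloid cells among them. The labels describe tamoxifen injections on postnatal days 1 and 2 or as indicated, and whether the Hk2 fl/fl mice had them, how microglia were depleted, and how many animals made up a library are not given in the sources used here. With 1 library per genotype, a difference between genotypes has no replicate check, the comparisons are of 2 libraries, and every interval given is a 95% interval that covers counting error only.

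Most mRNAs of the clustered histone genes end not in a poly(A) tail but in a short stem-loop, which the protein SLBP binds and which is formed by cleavage just after it. These mRNAs are made when DNA is copied in S phase and are destroyed when copying ends. Some clustered genes also give polyadenylated mRNA, in dividing or in resting cells, and 3' tag libraries prime on stretches of A, so that mRNA of the stem-loop form is captured poorly.

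Hk2 itself stood at 166 CPM (162 to 171; CPM is the UMIs of a gene per 1000000 UMIs of the cells summed) in microglia-like cells of the Hk2 fl/fl library and at 43.7 (41.3 to 46.2) in the Hk2 cKO library, which goes with the labels. The level of Cx3cr1, the gene whose promoter drives Cre, was 1301 against 677 CPM. The lower Hk2, the Cre driver and the lower Cx3cr1 occurred together in the Hk2 cKO library. Their parts in any difference between genotypes cannot be told apart. The libraries held 3089 and 2607 barcodes with 37476201 and 32896996 UMIs (unique molecular identifiers, 1 per captured RNA molecule), and 2 barcodes occurred in both. After filtering, 2467 and 2008 cells were microglia-like, with 32611182 and 28357182 UMIs and median depths of 10177 and 12009 UMIs. Defining markers of microglia were present, with Tmem119 in 96.8% (Hk2 fl/fl) and 97.2% (Hk2 cKO) of cells. A count of 3 UMIs, the limit that a count of 0 allows, corresponds to 0.0920 and 0.106 CPM.

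The 16-base stem-loop could be read from the annotated transcripts of 46 of the 69 members. It was searched for on the transcript strand in the 150 bases after the stop codon, as GG, 3 pyrimidines, TT, a pyrimidine, T, any base, A, 3 purines and CC. It began 22 to 59 bases after the stop codon, with a median of 32. Of 21069 other protein-coding genes with an annotated stretch after the stop codon, 4 (0.0190%) held it, among them H2afx, a histone gene outside the clusters. Of the 23 members without a match, 19 have fewer than 50 annotated bases after the stop codon or, as the 2 pseudogenes, no annotated stop codon, so that a stem-loop could lie beyond the end of the gene model, and 4 have longer ends without it (Hist1h2bc, Hist1h2bq, Hist1h2br and Hist2h2be). The sites below, in capitals, are those of members whose levels are described next, printed with 12 bases before and 2 after to show how rich in A the stretch before the stem-loop is. They are on GRCm38, from the GENCODE M21 transcripts, 5′ to 3′ on the strand of the gene.
Hist1h2ap, chr13:21833027-21833056, minus strand: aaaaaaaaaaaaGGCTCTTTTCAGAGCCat
Hist1h2ae, chr13:23570666-23570695, minus strand: aaaaaaaacaaaGGCTCTTTTCAGAGCCat
Hist1h4d, chr13:23581938-23581967, plus strand: ccaaaaaccaaaGGCCCTTTTCAGGGCCac
Hist1h3d, chr13:23576232-23576261, plus strand: ttggaccccaaaGGCTCTTTTCAGAGCCac
Hist1h1c, chr13:23739500-23739529, plus strand: aacaatccaaaaGGCTCTTTTCAGAGCCac
The stem-loop of these genes is the same 16 bases, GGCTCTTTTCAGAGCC, except in Hist1h4d. That form occurred in 26 of the 46 members, and 7 members, all H4 genes, had the form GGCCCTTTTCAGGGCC. In Hist1h2ap all 12 bases before the stem-loop were A, as in its near copy Hist1h2ao, whereas the median over the 46 members was 6. The annotated transcript of Hist1h2ap ends 3 bases after the stem-loop, and those of Hist1h1c and Hist1h4d run on for 840 and 770 bases.

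Of the 69 members, 64 (92.8%) had at least 1 UMI in microglia-like cells of either library, against 45.7% of all genes in the files. The level was high enough to compare, a mean of 10 or more CPM over the 2 libraries, for 11 members (15.9%, against 14.1% of all genes). All genes in the files include non-coding genes and pseudogenes, whereas 67 members are protein-coding. These shares are therefore not of like sets, and the shares among protein-coding genes are not given here. These 11 measured members held 79.1% of all member UMIs. Another 48 members had 10 or more UMIs in the 2 libraries but a mean between 0.185 and 8.36 CPM, and held 20.9%. Members with fewer than 10 UMIs numbered 6 (Hist1h1t, Hist1h4m, Hist1h3h, Hist1h2aa, Hist1h2ah and Hist2h2aa2), and 4 had none in any barcode (Hist1h2aj, Hist1h2ba, Hist1h2bq and Hist2h3c1). A 3' tag count is not divided by transcript length, since each molecule is counted once at its end, and the order of levels between members also carries how well each end is captured.

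The highest level was that of Hist1h2bc, an H2B gene (chr13:23684199-23692908, plus strand) annotated with a spliced transcript of 2 exons in which the stem-loop was not found. It stood at 128 CPM (124 to 132) in Hk2 fl/fl and 115 (111 to 119) in Hk2 cKO microglia-like cells, and alone held 22.4% and 21.6% of member UMIs. The linker histone genes were Hist1h1c, second highest at 79.4 and 74.1, Hist1h1e, at 37.4 and 37.8, and Hist1h1b, at 31.8 and 28.7 CPM. H4 was represented by Hist1h4d, at 39.6 and 35.1, and Hist1h4i, at 28.3 and 27.3. The H2A genes were Hist3h2a, at 30.6 and 25.6, Hist1h2ae, at 24.6 and 27.8, Hist1h2ap, at 16.4 and 26.5, and Hist1h2ac, at 15.4 and 13.9. H3 had a single measured member, Hist1h3d, at 17.4 and 12.4 CPM. In the Hk2 cKO library the counting intervals of Hist1h1b, Hist1h2ae, Hist1h4i, Hist1h2ap and Hist3h2a overlapped, so that their order there is within counting error.

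**Figure D1:**
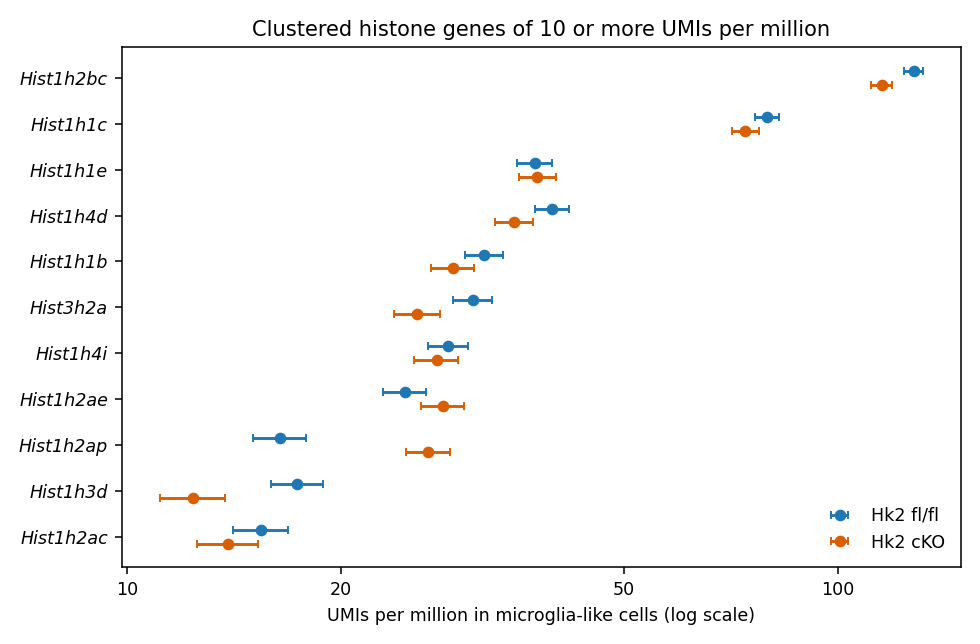
Level of the 11 measured members in CPM (log scale) in microglia-like cells of the Hk2 fl/fl and Hk2 cKO libraries, with exact 95% Poisson intervals that cover counting error only. Hist1h2bc is highest in both libraries, and the 2 libraries lie farthest apart for Hist1h2ap (16.4 and 26.5) and Hist1h3d (17.4 and 12.4).

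Below the measured members, the linker genes Hist1h1d, at 6.10 in Hk2 fl/fl and 6.03 in Hk2 cKO, and Hist1h1a, at 3.99 and 4.48 CPM, stood above the testis form Hist1h1t, with 6 and 2 UMIs. Among H2A genes of this range Hist2h2ac led, at 9.11 and 7.62 CPM, before Hist1h2ab (2.88 and 2.96), Hist2h2aa1 (2.39 and 2.96) and Hist1h2al, annotated as a processed pseudogene (2.61 and 2.68). The H2B genes with most UMIs were Hist3h2ba (9.14 and 6.63), Hist1h2be (7.51 and 6.63), Hist1h2bj (5.64 and 4.97) and Hist2h2be (3.86 and 2.40). H3 followed with Hist1h3e (5.55 and 4.51), Hist1h3c (4.48 and 4.23), Hist1h3a (3.34 and 2.96) and Hist2h3c2 (2.02 and 2.75). H4 was led by Hist1h4h (4.94 and 5.64), Hist4h4 (3.50 and 3.24), Hist1h4c (3.13 and 3.07) and Hist2h4 (3.097 and 2.64).

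The stem-loop was present in 9 of the 11 measured members, 33 of the 48 low ones and 4 of the 10 with fewer than 10 UMIs. The exceptions among the measured were Hist1h2bc and Hist1h1b, whose gene model ends at the stop codon. Among members with 10 or more UMIs, the length of the annotated end went with the count. Of the 11 measured members 8 have 200 or more annotated bases after the stop codon, against 14 of the 48 low ones. Such ends also occurred in 1 of the 6 members with under 10 UMIs and in 2 of the 4 without a UMI. The 25 members with such an end summed to 429 CPM in Hk2 fl/fl and 389 in Hk2 cKO cells, and the other 44 to 141 and 145. A run of 8 or more A occurred in the transcripts of 7 members, among them 4 of the measured (Hist1h2ap, Hist1h2ae, Hist1h2ac and Hist1h2bc). In Hist1h2ap the run is 12 A long and starts 27 bases after the stop codon, directly before the stem-loop, and in Hist1h2ac it is 15 A long and starts 857 bases after the stop codon.

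Near-identical copies limit which member a read can be given to. Of the 50-base windows in the last 400 bases of a transcript, the median share found in no other gene's transcript was 100% for the measured members, 44.9% for the low ones, 8.83% for the 6 with under 10 UMIs and 3.47% for the 4 without a UMI. For members with shared ends, a low count and absence of the mRNA cannot be told apart. The median share was 100% for members with 200 or more annotated bases after the stop codon and 32.6% for the others. Length of the end and sharing of its sequence therefore cannot be told apart here. In 2 measured members no window was unique. Hist1h1e overlaps Hist1h2be and Gm11398 on the same strand and shares its windows with 2 genes, so its UMIs are uncertain between them. The windows of Hist1h2ap were shared with 24 other genes, and yet it had 1287 UMIs where Hist1h2ao, with the same site, had 17, so that its identity within the group is uncertain and how its reads were assigned was not tested. Hist3h2a overlaps Trim17 and Hist1h2ac overlaps Gm24991 on the same strand, although all windows of both were unique, and whether reads were split there was not tested.

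**Figure D2:**
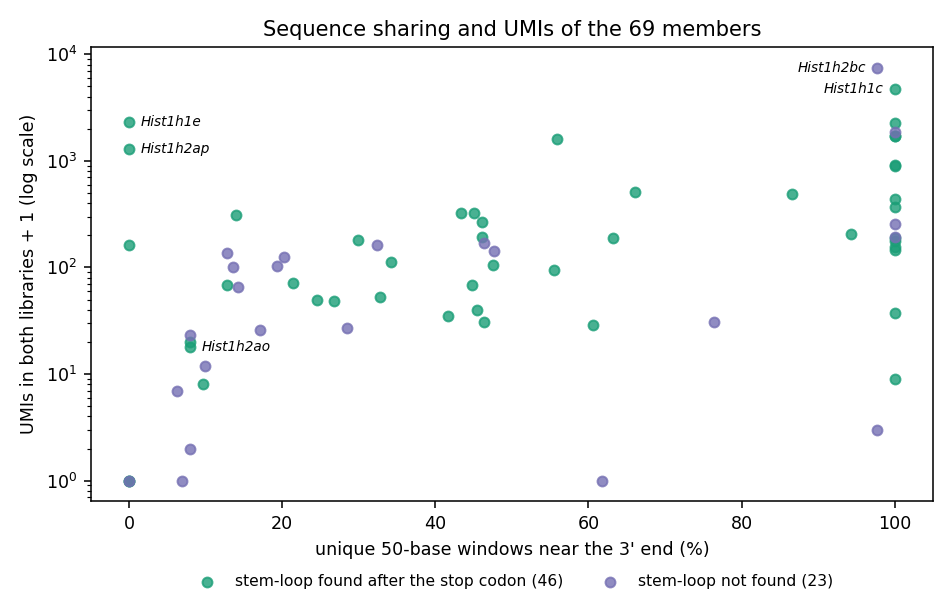
Share of 50-base windows near the 3' end found in no other gene's transcript (%) against UMIs in both libraries plus 1 (log scale), 1 point for each of the 69 members, coloured by whether the stem-loop was found. Most members with over 1000 UMIs sit near 100%, with Hist1h1e and Hist1h2ap at 0% and Hist1h2ae at 55.8% as the exceptions.

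Clustered histone genes often lie head to head, and 14 pairs of neighbouring members start within 1000 bases of each other on opposite strands, 13 of them an H2A with an H2B gene. The counts of partners differed. Hist1h2bc had 7435 UMIs and Hist1h2ac, which starts 250 bases away, 896. Hist1h2ae had 1590 and its partner Hist1h2bg 188, and Hist1h2ap had 1287 and its partner Hist1h2br 103. Over the 10 pairs in which both partners had 10 or more UMIs, the higher partner was 1.43 to 12.5 times the lower, with a median of 2.49.

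RefSeq promoters (GRCm38.p6) could be matched to 61 of the 69 members. In the 250 bases before the start, on either strand, CCAAT (or ATTGG) occurred in 50 of these 61 (82.0%), against 33.8% of 32789 other promoters. TATAAA occurred in 29 (47.5%, against 12.3%), and the octamer ATTTGCAT (or ATGCAAAT) in 13 (21.3%, against 1.56%), 7 of them H2A and 6 of them H2B genes. H4 promoters differed from the others in that 3 of 12 held CCAAT, while it was found in 8 of 10 H3 promoters and in each of the 6 H1, 17 H2A and 16 H2B promoters. Head-to-head partners share most of this window, so these promoters are not independent, and a match is a description of letters and not of binding. The 120 bases before the start are printed for 3 members that were concentrated in cycling cells or present throughout, and for Hist1h2ac, whose promoter lies between it and Hist1h2bc, with the motifs in capitals.
Hist1h1b, chr13:21780626-21780745, minus strand: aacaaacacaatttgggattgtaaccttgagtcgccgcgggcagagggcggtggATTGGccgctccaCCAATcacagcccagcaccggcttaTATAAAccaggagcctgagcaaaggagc
Hist1h4d, chr13:23581448-23581567, plus strand: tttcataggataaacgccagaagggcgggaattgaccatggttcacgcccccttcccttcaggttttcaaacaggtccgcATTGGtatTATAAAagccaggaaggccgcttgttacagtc
Hist1h1c, chr13:23738687-23738806, plus strand: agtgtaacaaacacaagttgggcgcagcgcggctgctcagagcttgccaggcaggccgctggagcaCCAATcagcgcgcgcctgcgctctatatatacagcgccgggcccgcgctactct
Hist1h2ac, chr13:23683960-23684079, minus strand: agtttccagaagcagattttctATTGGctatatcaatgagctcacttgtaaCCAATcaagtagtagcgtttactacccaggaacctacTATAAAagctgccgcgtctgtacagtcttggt
Of these 4, Hist1h1c is the one without TATAAA in the window. Hist1h4d is among the 3 H4 promoters of 12 that held CCAAT or ATTGG.

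To place the members in the cell cycle, microglia-like cells with at least 5000 UMIs (2247 Hk2 fl/fl and 1828 Hk2 cKO cells, with 220 and 180 shallower ones left out) were thinned to 5000 UMIs each and called positive for S or for G2/M when 3 or more of 12 S genes or of 12 G2/M genes had a UMI. The S genes were Mcm2, Mcm3, Mcm4, Mcm5, Mcm6, Mcm7, Pcna, Tyms, Rrm2, Gins2, Cdc6 and Dtl. The G2/M genes were Cdk1, Ccnb1, Ccnb2, Ube2c, Birc5, Top2a, Mki67, Cenpf, Cdc20, Plk1, Tpx2 and Nusap1. The 4 classes were S only, S and G2/M, G2/M only and neither. They are named for these lists, and how S phase itself is divided among them was not tested. Levels were then taken from all UMIs of the cells in a class. The S only class held 12.1% and 12.3% of cells in the Hk2 fl/fl and Hk2 cKO libraries, S and G2/M 14.3% and 12.6%, G2/M only 18.1% and 13.1%, and neither 55.5% and 62.0%. Called on unthinned counts, S and G2/M held 32.8% and 27.3% and neither 41.9% and 46.5%. The classes are ranges of a count: 184 and 146 cells had exactly 3 S genes, and 190 and 93 exactly 3 G2/M genes.

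Clustered histone RNA was not highest in the cells with S genes alone. Summed over the 69 members, cells of the neither class held 330 (321 to 339) CPM in Hk2 fl/fl and 305 (296 to 314) in Hk2 cKO. S only cells held 313 (296 to 330) and 279 (262 to 295). Cells with both S and G2/M genes held 1123 (1096 to 1150) and 1229 (1196 to 1261), and G2/M only cells 774 (753 to 795) and 901 (872 to 931). The S and G2/M class was thus the highest in both libraries, with G2/M only next. S only had the lowest value, but in Hk2 fl/fl its interval overlapped that of neither cells.

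**Figure D3:**
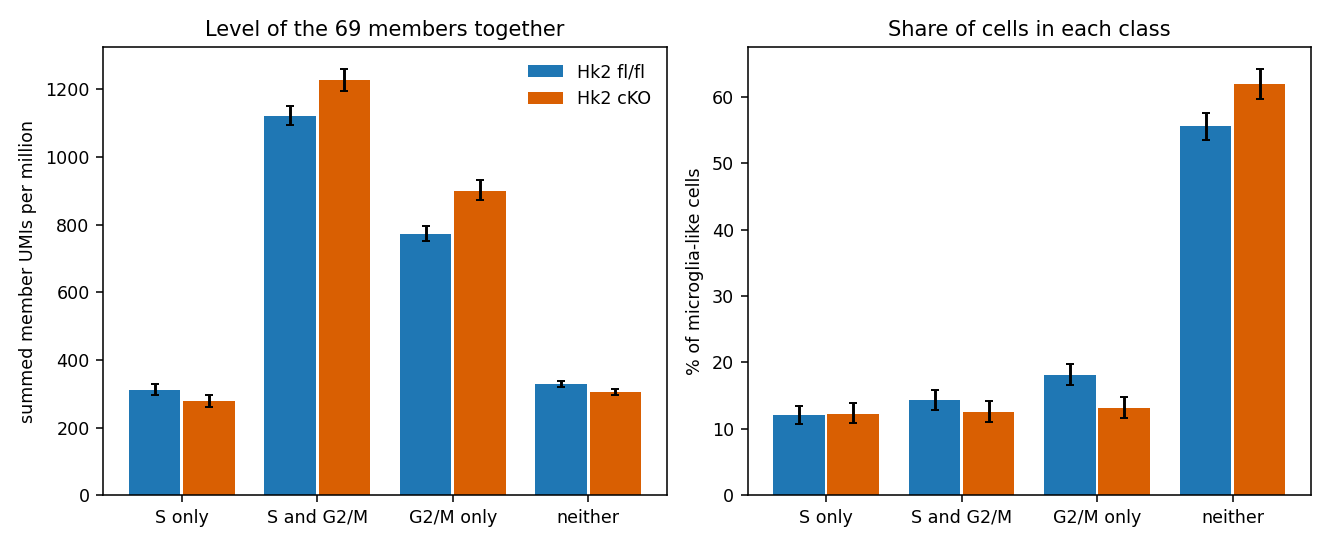
Left, CPM summed over the 69 members in each cell cycle class of microglia-like cells; right, the share of cells in each class (%). Bars are the 2 libraries and error bars exact 95% intervals of counting error. The S and G2/M class is highest in both libraries (1123 and 1229), and the S only class lies at or below the neither class.

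Against the neither class, on the scale of log2 with 1 CPM added, the sum stood at -0.08 (-0.16 to 0.01) in S only cells of Hk2 fl/fl and -0.13 (-0.23 to -0.04) in those of Hk2 cKO. The S only difference turned with the way cells were classed: it was 0.35 and 0.21 with 5 or more of 12 genes required, 0.40 and 0.40 with cells thinned to 2500 UMIs, and 0.39 and 0.49 with scanpy's phase scores. The differences for the other classes were read after this one was seen. They were 1.76 and 2.01 for S and G2/M cells, and 1.23 and 1.56 for G2/M only cells, and stayed above 0.97 under every alternative run.

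Counted by gene, at least a 2-fold higher level than in the neither class was reached in S only cells by 2 of the 11 measured members in each library (Hist1h1b and Hist1h2ap), where 2.82% of 7789 genes reached it in Hk2 fl/fl and 2.94% in Hk2 cKO. In S and G2/M cells 8 of 11 reached it in each library, against 5.38% and 6.2% of all genes. In G2/M only cells 8 of 11 reached it in Hk2 fl/fl and 10 of 11 in Hk2 cKO, against 2.38% and 3.31%. The median log2 difference over the 11 members was 2.29 and 2.05 in S and G2/M cells, where the median of all genes was 0.03 and -0.02. None of the 11 measured and none of the 48 low members was highest in S only or in neither cells. S and G2/M was the highest class for 8 (Hk2 fl/fl) and 7 (Hk2 cKO) of the 11 and for 40 and 41 of the 48, and G2/M only for the rest. The same class was highest in both libraries for 10 of the 11 and 39 of the 48. The share of all genes with each highest class is not given here, so these counts are not read as particular to the members. For low members with few UMIs the highest class is also uncertain.

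The linker gene Hist1h1b was the most concentrated. In the Hk2 fl/fl library it stood at 2.01 CPM in neither, 9.57 in S only, 124 in S and G2/M and 31.1 in G2/M only cells. In the Hk2 cKO library it stood at 0.784, 17.3, 131 and 34.0. Both libraries thus had the same order, with the level in S and G2/M cells 41.5 and 74.0 times that in neither cells on the scale with 1 CPM added. Hist1h2ap had the same order, from 1.34 in neither and 4.56 in S only to 61.5 in S and G2/M and 18.3 in G2/M only cells of Hk2 fl/fl, and from 1.37 and 12.0 to 113 and 41.7 in Hk2 cKO. The H2A gene Hist1h2ae went from 7.39 in neither to 78.5 in S and G2/M cells of Hk2 fl/fl, and from 7.12 to 102 in Hk2 cKO. The levels of these 3 genes in neither cells were low but not at 0.

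Hist1h4d and Hist1h1e shared the peak in S and G2/M cells but kept a higher level outside it. Hist1h4d stood at 14.97 in neither and 109 in S and G2/M cells of Hk2 fl/fl, and at 13.1 and 108 in Hk2 cKO. Hist1h1e stood at 15.2 and 93.1 in Hk2 fl/fl and at 16.9 and 114 in Hk2 cKO. Hist1h3d went from 8.26 to 44.4 in Hk2 fl/fl and from 7.84 to 27.1 in Hk2 cKO, and Hist1h2ac from 10.0 to 28.4 and from 7.78 to 35.4. In S only cells each of these 4 lay within 1.5-fold of neither in both libraries. Hist1h4i was the member whose highest class differed between libraries: S and G2/M (45.6, with 39.0 in G2/M only) in Hk2 fl/fl and G2/M only (53.5, with 45.7 in S and G2/M) in Hk2 cKO.

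The members with the highest overall level followed another pattern. Hist1h2bc stood at 104 in neither, 87.3 in S only, 137 in S and G2/M and 203 in G2/M only cells of Hk2 fl/fl, and at 93.6, 77.01, 114 and 236 in Hk2 cKO. Hist1h1c stood at 60.2, 48.1, 93.8 and 130 in Hk2 fl/fl, and at 61.3, 32.3, 102 and 135 in Hk2 cKO, in the same order of classes. Both were abundant in the neither class, and the G2/M only class was their highest in both libraries. Hist3h2a, an H2A gene, stood at 34.3, 18.9, 19.0 and 38.4 in Hk2 fl/fl and at 27.6, 13.001, 20.4 and 35.0 in Hk2 cKO. Its level in S and G2/M cells lay below that in neither cells, by 0.82 and 0.42 on the log2 scale, the reverse of the other 10 measured members.

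**Figure D4:**
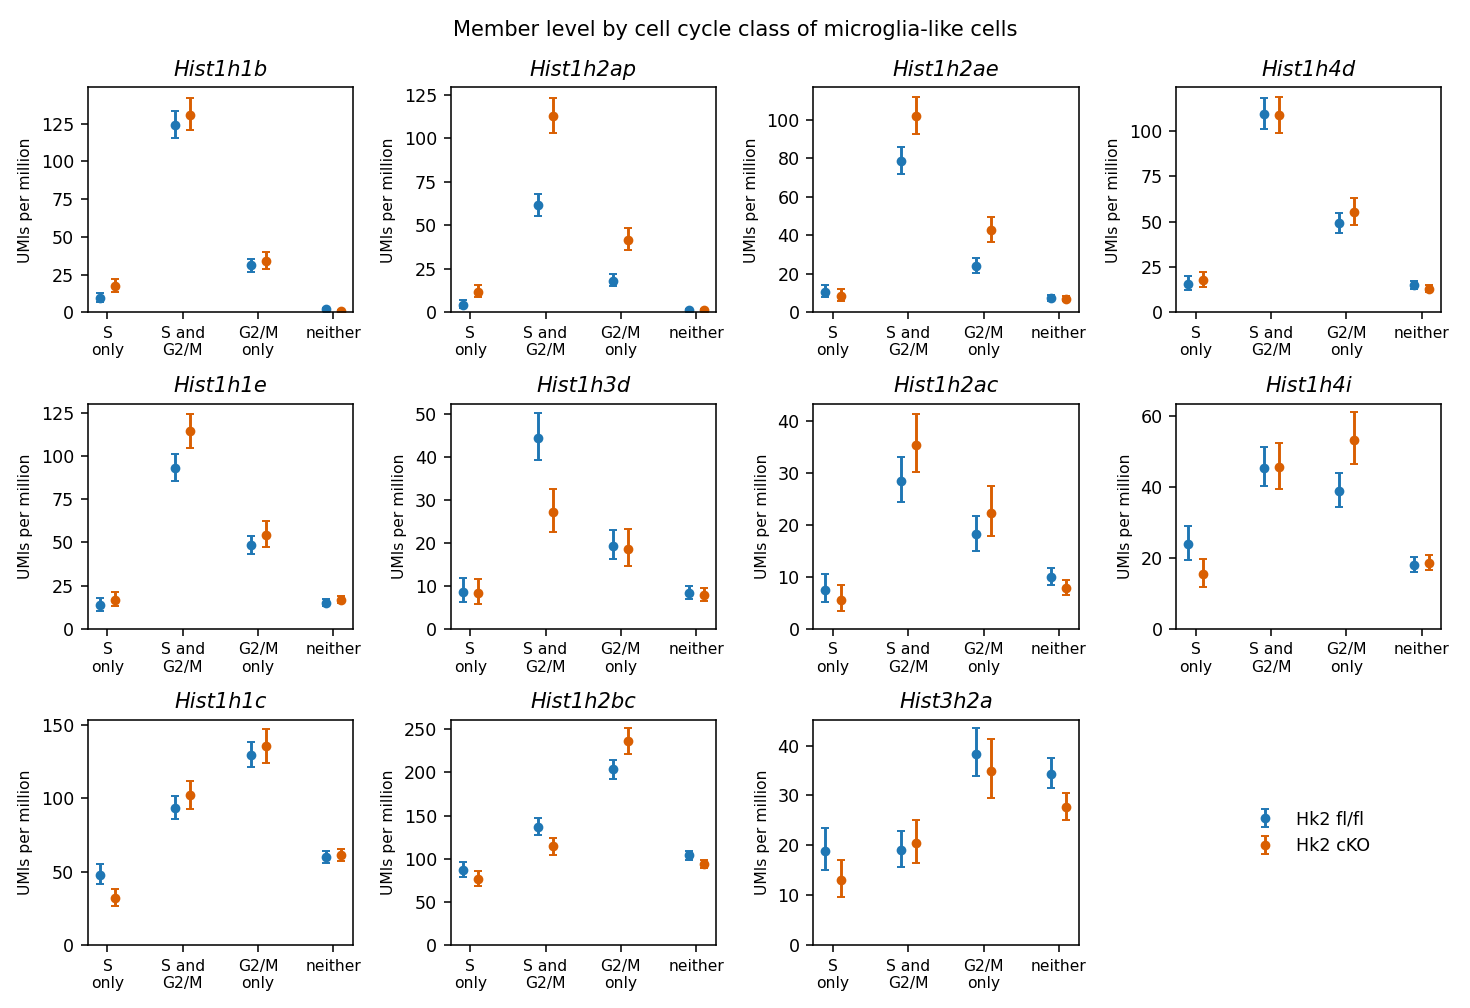
Level of each of the 11 measured members in CPM (linear axes from 0, scaled per panel) in the 4 cell cycle classes of microglia-like cells, in the 2 libraries, with exact 95% Poisson intervals of counting error. Hist1h1b and Hist1h2ap are near 0 in neither cells and peak in S and G2/M cells, while Hist1h1c and Hist1h2bc peak in G2/M only cells and Hist3h2a is lower in cells with S genes.

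Without Hist1h2bc the sum in S only cells differed from that in neither by 0.00 in Hk2 fl/fl and -0.07 in Hk2 cKO on the log2 scale. The 48 low members together stood at 53.4 in neither, 64.0 in S only, 288 in S and G2/M and 155 in G2/M only cells of Hk2 fl/fl, and at 48.7, 54.3, 314 and 172 in Hk2 cKO. By histone type, H2B was highest in G2/M only cells (265 and 301 CPM, against 229 and 205 in S and G2/M cells). Of these H2B levels, Hist1h2bc alone gave 203 and 236 in G2/M only cells and 137 and 114 in S and G2/M cells. The H2B order thus came from Hist1h2bc, and the rest of H2B together was higher in S and G2/M than in G2/M only cells. H1, H2A, H3 and H4 were highest in S and G2/M cells, H4 for example at 191 and 200 against 42.5 and 41.6 in neither cells.

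A finer division by the number of S and G2/M genes detected, added after the classes were seen, showed a higher sum with more G2/M genes at every number of S genes, apart from 1 step (345 with no and 267 with 1 or 2 G2/M genes in Hk2 fl/fl cells with 6 to 12 S genes). Among Hk2 fl/fl cells with no S gene it was 275 CPM with no G2/M gene (239 cells) and 1197 with 6 to 12 (26 cells). Among those with 6 to 12 S genes it was 267 with 1 or 2 G2/M genes (45 cells) and 1644 with 6 to 12 (52 cells). In Hk2 cKO the corresponding values were 241 and 923, and 270 and 1528. Among Hk2 fl/fl cells with 6 to 12 G2/M genes, Hist1h1b stood at 94.5 CPM with no S gene (26 cells), 56.9 with 1 or 2, 174 with 3 to 5 and 213 with 6 to 12, and among those of Hk2 cKO at 26.8 (24 cells), 74.6, 175 and 207. The cells with 6 to 12 S genes and no G2/M gene were 16 and 7, too few to read.

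**Figure D5:**
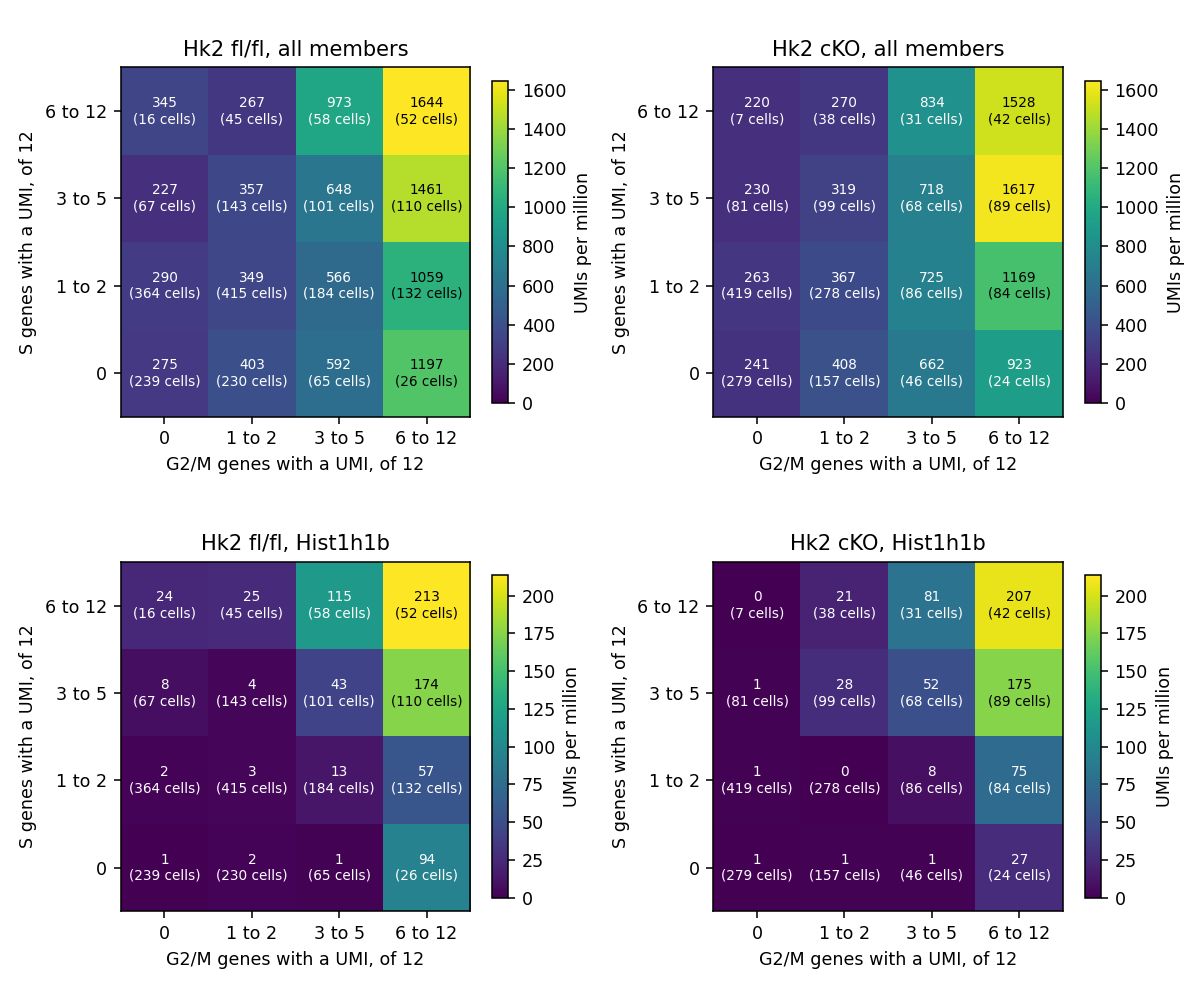
CPM summed over all members (top) and of Hist1h1b (bottom) by the number of G2/M genes (x) and S genes (y) with a UMI in cells thinned to 5000 UMIs, for the 2 libraries, with the number of cells in brackets. The sum is highest in the right column, and Hist1h1b in its upper part.

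Between genotypes the sum of the members differed little. It was 570 (562 to 578) CPM in Hk2 fl/fl and 534 (526 to 543) in Hk2 cKO microglia-like cells, a log2 ratio of -0.09 (-0.13 to -0.06). Over the 11 measured members the median log2 ratio was -0.14, against -0.04 over the 7812 genes measured, with 3 members higher (Hist1h2ap, Hist1h2ae and, by 0.01, Hist1h1e, which was lower under 2 of 9 alternatives) and 8 lower in Hk2 cKO. A level higher in Hk2 cKO by a log2 ratio of 0.32 or more was reached by 1 of the 11 (Hist1h2ap), as by 3.37% of all genes, and a level lower by as much by 1 (Hist1h3d), as by 2.48%. Each share of the members is 1 gene and is not a result about the members as a group. By type, the summed log2 ratio was -0.07 (-0.13 to -0.01) for H1 and 0.05 (-0.02 to 0.11) for H2A. It was -0.17 (-0.23 to -0.12) for H2B, -0.27 (-0.40 to -0.15) for H3 and -0.09 (-0.18 to -0.02) for H4. Of H2A, at 113 and 117 CPM, Hist1h2ap alone gave 16.4 and 26.5, and the rest of H2A together was lower in Hk2 cKO. Of H3, at 38.3 and 31.6 CPM, Hist1h3d alone gave 17.4 and 12.4.

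Hist1h2ap stood at 16.4 (15.04 to 17.9) CPM in Hk2 fl/fl and 26.5 (24.7 to 28.5) in Hk2 cKO, from 535 and 752 UMIs, a log2 ratio of 0.66 (0.53 to 0.86). The cKO library was the higher, and the intervals did not overlap. The log2 ratio was 0.87 in S and G2/M cells (61.5 and 113) and 1.15 in G2/M only cells (18.3 and 41.7), 1.23 (0.62 to 2.23) in S only cells (4.56 and 12.0, from 20 and 48 UMIs), and 0.02 in neither cells (1.34 and 1.37). The 10 cells with most Hist1h2ap UMIs held 15.1% and 18.1% of them. Hist1h3d stood at 17.4 (15.96 to 18.8) and 12.4 (11.1 to 13.7) CPM, a log2 ratio of -0.46 (-0.68 to -0.29), with the cKO library lower. Its difference lay in S and G2/M cells (44.4 and 27.1, log2 ratio -0.69), and its level in neither cells was 8.26 and 7.84. Hist1h2ae, at -0.05 in neither and -0.26 in S only cells, stood 0.37 higher in S and G2/M and 0.81 higher in G2/M only cells of Hk2 cKO on the log2 scale. These differences between classes were not tested.

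Within classes the summed log2 ratio of Hk2 cKO over Hk2 fl/fl was -0.17 (-0.28 to -0.05) in S only, 0.13 (0.08 to 0.18) in S and G2/M, 0.22 (0.16 to 0.28) in G2/M only and -0.11 (-0.17 to -0.05) in neither cells. Without Hist1h2ap the value in S and G2/M cells was 0.07 and that in G2/M only cells 0.19. By type, H1, H2A and H4 were higher and H2B and H3 lower by value in S and G2/M cells of Hk2 cKO. The intervals overlapped for H4, H2B and H3, and the H2B and H3 differences came largely from Hist1h2bc and Hist1h3d. The mix of classes moved with the genotype, since G2/M only and S and G2/M cells together gave a smaller share in Hk2 cKO. With the level of each Hk2 cKO class weighted by the share of UMIs that the class had in Hk2 fl/fl, the sum was 598 CPM against 568 in Hk2 fl/fl, a log2 ratio of 0.07, where the observed mix gave 535 and -0.08. The sign of the overall ratio thus differed between the 2 weightings, the second of which was added after the data were seen. The median depth of cells was also higher in Hk2 cKO within each class, for example 14301 against 12372 UMIs in G2/M only cells, and its part in these ratios was not tested.

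Neutrophil-, monocyte-, endothelial- and dendritic-like cells in the gate had summed levels of 181 to 515 CPM, but these cells also held microglial RNA. Levels of the 34 pericyte-like and 19 choroid plexus-like cells are not given here. Neutrophil-like cells stood at 356 (82 Hk2 fl/fl cells) and 342 (89 Hk2 cKO cells), with 4 microglial markers summing to 1242 and 1201 CPM, against 2699 and 2753 in microglia-like cells. Monocyte-like cells stood at 382 (79 cells) and 181 (34 cells), where the same markers summed to 1083 and 65.8. The part of microglial RNA in these levels was not tested.

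Of 15 listed genes that make and process histone mRNA 11 were measured, and 3 were higher and 8 lower in Hk2 cKO, none of them by a log2 ratio of 0.32 or more. Among all genes 3.37% were higher and 2.48% lower by as much. Slbp, which encodes the stem-loop binding protein, stood at 87.1 CPM in neither, 144 in S only, 193 in S and G2/M and 72.2 in G2/M only cells of Hk2 fl/fl, and at 100.4, 154, 197 and 68.0 in Hk2 cKO. Its level thus was above neither in S only cells and below it in G2/M only cells in both libraries, where the members' sum was above. In S only cells 2 of the 11 were at least 2-fold higher than in neither cells in each library, against 2.82% and 2.94% of all genes. They were Casp8ap2 (44.0 against 17.2 in Hk2 fl/fl), which encodes FLASH, a factor of histone mRNA processing, and Eri1 (46.9 against 22.3), an exonuclease that trims histone mRNA. Lsm10 was the lowest there, at -0.23 and -0.42 on the log2 scale. By genotype the ends of the list among measured genes were Casp8ap2 at -0.21 and Cstf2 at 0.13. Npat, the transcription coactivator of histone genes, stood at 10.7 and 9.03 CPM and so just missed the level for comparison.

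Of 12 histone genes outside the clusters 9 were measured. At least 2-fold higher in S and G2/M than in neither cells were 4 (Hk2 fl/fl) and 5 (Hk2 cKO), against 5.38% and 6.2% of all genes. None reached it in S only cells, where 2.82% and 2.94% of all genes did, so that none of 9 is near that share. H2afx, which holds the stem-loop sequence, stood at 32.6 in neither, 45.1 in S only, 213 in S and G2/M and 167 in G2/M only cells of Hk2 fl/fl, and at 29.3, 34.5, 237 and 208 in Hk2 cKO. Its order of classes was that of the clustered members' sum apart from S only. Cenpa, the histone H3 variant of centromeres, was highest in G2/M only cells, at 310 and 353 against 51.5 and 37.4 in neither cells, and had the lowest genotype ratio among the measured genes of the list, -0.27. H3f3b, an H3.3 gene, had the highest, 0.14. In S only cells H2afz was the highest of the list against neither cells, at 0.51 and 0.46 on the log2 scale, and H1f0 the lowest, at -0.37 and -0.60.

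Histone chaperones, which carry histones to and from DNA, were measured in all 19 cases. Of these, 18 are not among the genes used to call phases. At least 2-fold higher in S only than in neither cells were 6 (Hk2 fl/fl) and 5 (Hk2 cKO), against 2.82% and 2.94% of all genes. In S and G2/M cells 10 of the 18 reached it in each library, against 5.38% and 6.2% of all genes. Chaf1a, a subunit of the CAF-1 complex that deposits new H3 and H4, stood at 34.4 CPM in S only against 4.57 in neither cells of Hk2 fl/fl, and at 31.3 against 3.20 in Hk2 cKO. Ubn1 was the lowest of the list there, at -0.24 and -0.33 on the log2 scale. Hjurp, the chaperone of Cenpa, had the lowest genotype ratio, -0.33, and Daxx the highest, 0.27. In S only cells the median log2 difference from neither cells was 0.86 and 0.71 for the chaperones, 0.31 and 0.55 for the processing list, and 0.06 and -0.01 for the 11 measured clustered histone genes.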

How the data were processed

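Raw UMI counts per gene and barcode were deposited for 2 libraries, made with Cell Ranger 3.1.0 after bcl2fastq on GRCm38, per the submitters' processing notes; their annotation release is not stated there, and all 55450 identifiers matched GENCODE M21. Barcodes needed 500 genes and no more than 10% of UMIs from mitochondrial genes. Scrublet marked 2 and 1 of the 2826 and 2301 that passed, which were left out (2824 and 2300 remained); at so low a share the caller had not worked, so doublets largely remain. Cells were clustered in scanpy 1.11.5 (2000 variable genes, members left out; 30 components, 15 neighbours, Leiden resolution 0.8) and named from marker lists; a marker among a cluster's leading genes counted only where 25% of its cells had it, a limit set after clusters were seen. CPM were taken from summed counts, ratios as log2 with 1 CPM added. Poisson, Clopper-Pearson and conditional binomial intervals are exact, and ratio intervals hold no added value. No test was possible with 1 library per genotype. The ratio functions were tested on simulated data.

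The members and lists were chosen with earlier results of these data known. Named were every measured member, the 4 members with most UMIs below that in each histone type, and in each list the extremes of the S only and genotype ratios, with Slbp and Npat. Genes named beyond this rule (H2afx, Eri1, Chaf1a, pair partners and members listed for a count) were chosen after their values were seen.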

Additional observations from a re-analysis of the deposited data

Results flagged for a closer look

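The log2 ratio of Hk2 cKO over Hk2 fl/fl for the summed clustered histone genes had opposite signs in different cell cycle classes of the same 2 libraries. It was -0.17 in S only and -0.11 in neither cells, and 0.13 in S and G2/M and 0.22 in G2/M only cells. In S and G2/M cells the histone types differed in direction by value. H2A (270 CPM in Hk2 fl/fl and 357 in Hk2 cKO), H1 (338 and 385) and H4 (191 and 200) were higher in Hk2 cKO. H2B (229 and 205) and H3 (95.5 and 80.9) were lower. The counting intervals of the 2 libraries overlapped for H4, H2B and H3, and not for H2A and H1. Hist1h2bc alone gave 137 and 114 of the H2B level, and Hist1h3d 44.4 and 27.1 of the H3 level. The H2B and H3 differences thus came largely from a single gene each. Of the H2A level, Hist1h2ap alone gave 61.5 and 113. With 1 library per genotype the difference between the classes was not tested.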

How the results depend on the processing

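The log2 ratio of Hk2 cKO over Hk2 fl/fl for the sum (-0.09) was -0.21 as a mean over cells, -0.13 in cells thinned to 5000 UMIs, -0.062 over all kept cells, -0.053 in cells of 1000 or more genes and 5% or less mitochondrial UMIs, -0.13 without Hist1h2ap and, reversed, 0.074 with the Hk2 fl/fl mix of classes. The median over measured members (-0.14) was -0.22 as a mean over cells, -0.048 with the stricter cells and -0.067 over members of 10 or more UMIs. At 5 or more CPM 18 members were measured, not 11. S only against neither in Hk2 fl/fl (-0.08) was 0.35 with 5 of 12 genes, 0.40 with cells thinned to 2500 UMIs, 0.39 with scanpy scores and 0.028 with thinned levels; in Hk2 cKO (-0.13) it was 0.21, 0.40, 0.49 and -0.27. S and G2/M against neither in Hk2 fl/fl (1.76) was 1.52 with 2 of 12 genes, 2.10 with 5 of 12, 1.83 at 2500 UMIs, 1.18 with phases called on unthinned counts and 2.12 without Hist1h2bc; in Hk2 cKO (2.01) 1.83, 2.32, 2.15, 1.56 and 2.39. G2/M only against neither in Hk2 fl/fl (1.23) was 1.10, 1.53, 1.46, 0.97 and 1.34 in that order, 1.60 with scanpy scores and 1.34 with thinned levels; in Hk2 cKO (1.56) 1.48, 1.76, 1.76, 1.245 and 1.65, then 1.88 and 1.41. The genotype ratio within S and G2/M cells (0.13) was 0.21 with 2 of 12 genes and 0.072 without Hist1h2ap, and within G2/M only cells (0.22) 0.28 with 2 and 0.13 with 5 of 12 genes. Scanpy scores have no S and G2/M class and gave no value for it. The values without Hist1h2ap, with the other mix of classes, for single members, and for S and G2/M and G2/M only against neither cells were chosen after seeing the data. The causes were not tested. The 46 stem-loops were found with either alternative search. Hist1h2ap kept a ratio of 0.52 to 0.80 and Hist1h3d of -0.47 to -0.34 over 9 alternatives each. No paired analysis was possible because each genotype has 1 library with no replicate number. Members below 10 CPM are limited by depth and by shared sequence.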
